A study of Homo sapiens with 6 samples.

Results

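The genes of the SR and hnRNP splicing factors were followed through parental cells, polyploid giant cancer cells (PGCCs) and daughter cells of 2 ovarian cancer cell lines. The 33 genes were selected on their symbol (SRSF and a number, or a name starting with HNRNP, pseudogenes left out) and on a mean of at least 1 TPM (transcripts per 1000000, an abundance scaled within each library) over the 6 libraries. They are 12 SR and 21 hnRNP genes among 14988 genes that reach the same mean, out of 59008 symbols. The name alone fitted 37 symbols. The 4 below the mean were HNRNPCL1, at 0 to 0.111 TPM, and HNRNPCL2, HNRNPCL3 and HNRNPCL4, listed at 0 in every library. SRSF12, with a mean of 2.48 TPM, was the member nearest to the threshold. Since the mean level chose the members, their levels are given as a description.

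Hey and SKOV3 are established human ovarian cancer cell lines. PGCCs are cells with a giant or multiple nuclei that survive paclitaxel, a drug that stabilizes microtubules, and that later bud small daughter cells. Per the labels, parental cells were untreated, PGCCs recovered for 3 days after 16 h in 500 nM paclitaxel, and daughter cells recovered for 30 days after the same treatment, although the title of the SKOV3 PGCC library gives day 7. Each of the 6 conditions has 1 library, and the daughter libraries are titled clone 1 in both lines, so no difference between 2 conditions carries an error or a p-value. Hey was grown in MEM Eagle and SKOV3 in RPMI-1640, so line and medium cannot be told apart.

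SR proteins carry an RNA-recognition domain and a tail rich in arginine and serine. They bind exonic sequences and help the spliceosome to recognize exons, under the control of the SRPK and CLK kinases. The hnRNP proteins coat nascent transcripts and often act against exon inclusion, and many also work in mRNA export, stability and translation. Many genes of both families limit their own output through alternative transcripts that are degraded by nonsense-mediated decay (NMD), and a TPM per gene pools productive and degraded transcripts.

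The deposited columns summed to between 911825 and 920497 TPM. Mitochondrial genes took 2.64%, 12.3% and 7.60% of the TPM in Hey (parental, PGCC and daughter cells) and 9.17%, 7.37% and 14.8% in SKOV3. Of the 9 epithelial and ovarian carcinoma markers checked, KRT7, KRT8, KRT18 and PAX8 were present in both lines. In Hey EPCAM was at most 1.43 TPM, CDH1 at most 0.0283 TPM and KRT19 at most 3.60 TPM. In SKOV3 EPCAM was at 8.15 to 68.8 TPM, CDH1 at 1.47 to 8.35 TPM and KRT19 at 80.2 to 711 TPM. MUC16 was at most 0.0322 TPM in Hey and 1.59 TPM in SKOV3. WT1 was at 0.530 to 4.10 TPM in Hey and 0.545 to 2.91 TPM in SKOV3. The summed level of 10 fibroblast markers was 14.2 to 71.3 TPM and that of 6 leukocyte markers was 1.93 to 69.8 TPM, with CD68 supplying most of the latter in Hey and CD3E listed at 0 in every library, and their part in the results was not tested. A TPM is a share of the RNA in a library, so fewer cells of a type and less RNA per cell cannot be told apart in these bulk samples, nor can a fall in all RNA be seen.

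The 33 genes together took 9849, 5672 and 9557 TPM in Hey (parental, PGCC and daughter cells) and 11618, 10479 and 9301 TPM in SKOV3. Hey PGCCs thus held 57.6% of the parental level and Hey daughter cells 97.0%, against 90.2% and 80.1% in SKOV3. For the SR genes alone the Hey PGCC level was 65.7% of parental, and for the hnRNP genes it was 55.9%. In SKOV3 PGCCs the corresponding shares were 86.7% and 90.9%. HNRNPA1 supplied much of the total, and without it Hey PGCCs stood at 63.0% of parental. The Hey PGCC library was the lowest of the 6 for 25 of the 33 genes, and the SKOV3 parental library was the highest for 16. These counts were not made over all genes, of which 29.6% were at least 2-fold lower in Hey than in SKOV3 PGCCs.

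**Figure D1:**
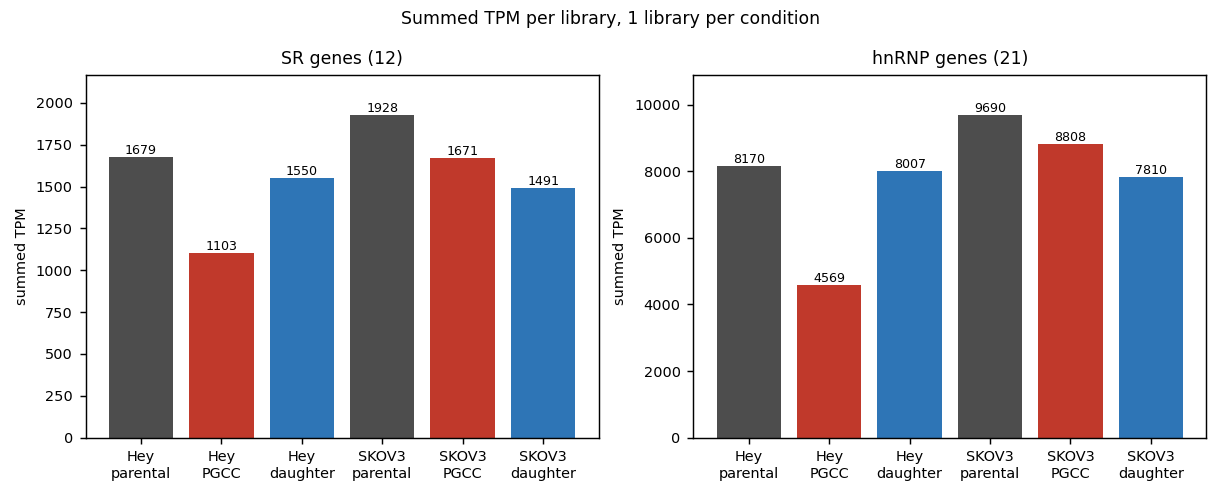
Summed TPM of the 12 SR genes (left) and the 21 hnRNP genes (right) in each library, 1 library per bar and no error bars. The Hey PGCC bars are the shortest of both panels, at 1103 and 4569 TPM, beside 1679 and 8170 TPM in Hey parental cells.

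Among the SR genes, SRSF3, SRSF5 and SRSF9 had the highest means. SRSF3, the smallest SR protein, which also acts as an adaptor in mRNA export, was at 262, 159.7 and 307 TPM in Hey parental, PGCC and daughter cells and at 376, 333 and 272 TPM in those of SKOV3. SRSF5, with a pair of RNA-recognition domains, was at 309.7, 227 and 266 TPM in Hey and 229.5, 262 and 199.8 TPM in SKOV3, listed as parental, PGCC and daughter. SRSF9 was at 140.3, 126 and 139 TPM in Hey and 266, 237 and 206 TPM in SKOV3 in the same order. All 3 were lower in PGCCs than in parental cells of Hey (SRSF9 by 0.15 on the log2 scale, and not with mitochondrial genes left out), and in SKOV3 SRSF5 alone was higher. SRSF12 (SRrp35), a little-expressed relative that can act against other SR proteins, was listed at 0 in all 3 Hey libraries and was at 3.35, 2.29 and 9.26 TPM in SKOV3, so it passed the threshold through SKOV3 alone.

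Among the hnRNP genes, HNRNPA1, HNRNPA2B1 and HNRNPC had the highest means. HNRNPA1, a shuttling protein that blocks splice-site recognition, was at 2182, 842 and 2067 TPM in Hey parental, PGCC and daughter cells and at 1903, 2029.6 and 1455 TPM in those of SKOV3. HNRNPA2B1 was at 727, 428 and 880.1 TPM in Hey and 1244, 965 and 1017 TPM in SKOV3. HNRNPC, which binds uridine tracts and shields cryptic exons, was at 1015, 649 and 855 TPM in Hey and 935, 968 and 823 TPM in SKOV3. Each of the 3 was at its lowest in Hey PGCCs. The other abundant member, HNRNPK, a protein that binds cytidine-rich RNA, was at 821, 597 and 708 TPM in Hey and 986, 818 and 743 TPM in SKOV3. HNRNPA1 also has a single-exon copy that is a member, HNRNPA1L2, and many pseudogenes, and reads could be split among them.

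**Figure D2:**
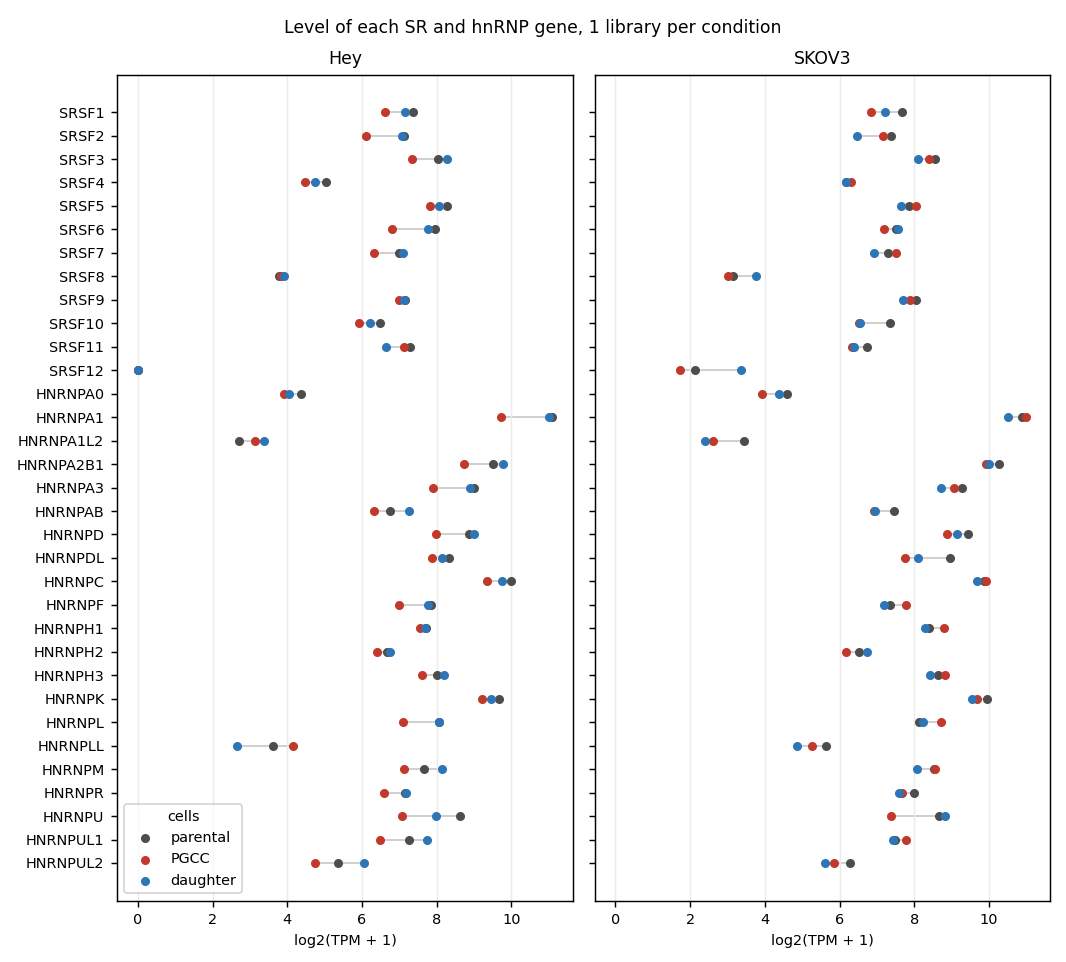
Level of each of the 33 genes as log2(TPM + 1) in parental cells (grey), PGCCs (red) and daughter cells (blue) of Hey and SKOV3, 1 library per point, SR genes above and hnRNP genes below. The red points lie at the left in Hey for 28 of the 32 genes detected there and in SKOV3 for 13 of 33. The same was not counted over all genes.

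To see how the splicing factors differ between PGCCs and the cells they came from, changes were taken as differences of log2(TPM + 1) within a line, and a change of at least 1, a 2-fold difference, was called. In Hey PGCCs 5 of the 33 genes fell at least 2-fold compared with parental cells (5.22% of all 14988 genes did), namely HNRNPU, HNRNPA1, SRSF6, HNRNPA3 and SRSF2, and 0 rose (7.67% of all genes). The change was below 0 for 29 of 33 members (47.5% of all genes), with a median of -0.56 beside 0 over all genes. In SKOV3 PGCCs 2 genes fell at least 2-fold (4.96% of all genes), HNRNPU and HNRNPDL, and 0 rose (9.94% of all genes). There the change was below 0 for 22 of 33 (47% of all genes), with a median of -0.27 beside 0.02. In both lines the change was below 0 for 18 members (22.3% of all genes), and the call was made in both lines for 1, HNRNPU (0.834% of all genes). The Hey and SKOV3 pairs have no library in common.

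Mitochondrial transcripts took a larger share of the Hey PGCC library. With mitochondrial genes left out and the rest rescaled, the Hey median was -0.42, beside 0.11 for all genes. Then 2 members were still called lower (3.95% of all genes), HNRNPU and HNRNPA1, at -1.40 and -1.22. In SKOV3 the changes of all genes followed GC content, with a Spearman correlation of 0.72 across 13348 genes of the same pair of libraries, and the correlation across the 33 members was 0.32. In Hey these values were -0.04 and 0.01. After a lowess trend over GC content and transcript length was taken out, the SKOV3 median turned to 0.06. There 14 of 33 changes were below 0 (49.4% of the 13348 genes). HNRNPU and HNRNPDL were still called lower (2.58% of these genes), and 0 members were called higher (2.23%). The Hey median was then -0.51, with 5 members called lower (5.06% of these genes) and 0 higher (6.09%). With that trend removed 10 SKOV3 changes turned above 0, those of SRSF3, SRSF6, SRSF11, SRSF12, HNRNPA2B1, HNRNPA3, HNRNPH2, HNRNPK, HNRNPLL and HNRNPR, to between 0.03 for HNRNPH2 and 0.31 for SRSF3, and 2 turned below 0, those of HNRNPM and HNRNPUL1.

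**Figure D3:**
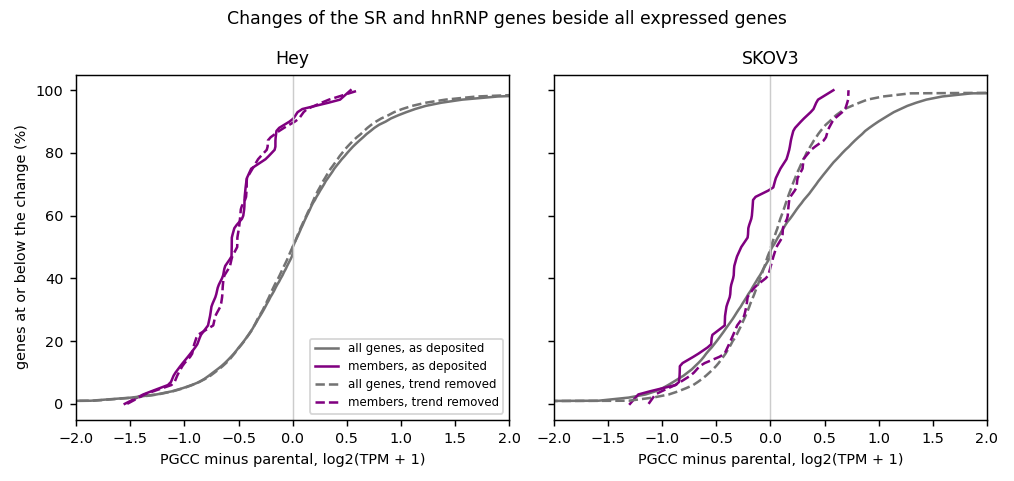
Percent of genes at or below each PGCC minus parental change, on the log2(TPM + 1) scale, for the 33 members (purple) and all expressed genes (grey), as deposited (solid, 14988 genes) and with the GC and length trend removed (dashed, the 13348 of them with an annotation). In Hey the members lie left of all genes in both versions, whereas in SKOV3 the dashed member line has its median at 0.06.

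Of the 12 SR genes, 10 were lower in PGCCs than in parental cells of Hey (47.5% of all genes), with a median of -0.56. In SKOV3 9 were lower (47% of all genes), with a median of -0.19. Of these 9, SRSF3, SRSF6, SRSF11 and SRSF12 moved above 0 once GC content and transcript length were accounted for. They then lay between 0.06 for SRSF11 and 0.31 for SRSF3, and no SR gene turned the other way. In that setting 49.4% of the 13348 annotated genes were below 0. Positions are those of GENCODE release 44 on GRCh38. SRSF6 (chr20:43457893-43466046) was at 246, 112 and 216 TPM in Hey parental, PGCC and daughter cells and at 182, 144 and 189 TPM in those of SKOV3. Its change was -1.13 in Hey and -0.34 in SKOV3, so it fell past 2-fold in Hey. SRSF2 (SC35, chr17:76734115-76737333), a factor that marks nuclear speckles, was at 139, 67.7 and 133 TPM in Hey parental, PGCC and daughter cells and at 164, 143 and 88.2 TPM in those of SKOV3. Its changes were -1.03 and -0.20, and in SKOV3 its lowest level was in the daughter cells. With mitochondrial genes left out the Hey values of SRSF6 and SRSF2 were -0.98 and -0.88, short of the threshold.

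SRSF1 and SRSF10 were lower in PGCCs of both lines by similar amounts. SRSF1 (SF2/ASF), the first SR protein described and a known oncogene, was at 165, 97.7 and 140.3 TPM in Hey parental, PGCC and daughter cells and at 204, 113 and 148 TPM in those of SKOV3, with changes of -0.75 and -0.85. SRSF10, which turns into a general splicing repressor when dephosphorylated, was at 88.8, 59.7 and 73.1 TPM in Hey and 162, 90.1 and 91.8 TPM in SKOV3, with changes of -0.57 and -0.84. After removal of the GC and length trend, SKOV3 changes were -0.39 for SRSF1 and -0.31 for SRSF10. SRSF8, a retrogene relative of SRSF2, was at 12.8, 13.3 and 14.1 TPM in Hey and 7.94, 7.01 and 12.6 TPM in SKOV3, and it was the one SR gene with a change above 0 in Hey PGCCs (0.06, and -0.01 with median-ratio scaling, which divides each library by its median ratio to the average library). SRSF7, an export adaptor with a zinc knuckle, was at 127, 78.4 and 136 TPM in Hey and 157, 182 and 120.3 TPM in SKOV3.

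In the A/B type hnRNPs, 7 of 8 were lower in PGCCs in each line (47.5% of all genes in Hey and 47% in SKOV3). The exception was HNRNPA1L2 in Hey and HNRNPA1 in SKOV3. Accounting for GC content and transcript length put the SKOV3 changes of HNRNPA2B1 and HNRNPA3 above 0, at 0.18 and 0.30. HNRNPA1 (chr12:54280193-54287088) fell in Hey, by 1.37 on the log2 scale, to 38.6% of its parental level, and its change in SKOV3 was 0.09. HNRNPA3 (chr2:177212694-177223959), a close relative, was at 508, 237 and 471 TPM in Hey and 621, 537 and 423 TPM in SKOV3, changes of -1.10 and -0.21. HNRNPDL (chr4:82422565-82430462), a relative of HNRNPD that limits its own mRNA through NMD, was at 319.6, 236 and 282 TPM in Hey and 500.3, 215 and 275 TPM in SKOV3. Its change was -0.44 in Hey and -1.22 in SKOV3, and the SKOV3 call was also made with the GC and length trend removed, at -1.13. HNRNPD (AUF1), which binds AU-rich elements and promotes mRNA decay, was at 465, 251 and 514 TPM in Hey and 691, 472 and 564 TPM in SKOV3, with changes of -0.88 and -0.55. HNRNPA0 and HNRNPAB were lower in both lines, by 0.42 to 0.68 on the log2 scale. HNRNPA1L2 went the other way in Hey, at 5.52, 7.81 and 9.36 TPM in Hey and 9.87, 5.08 and 4.26 TPM in SKOV3.

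HNRNPU (chr1:244840638-244864560), also known as scaffold attachment factor A, binds RNA and DNA and helps to organize chromatin. Its level was 394, 134 and 252 TPM in Hey parental, PGCC and daughter cells. The SKOV3 levels were 407, 165 and 451 TPM in the same order. Its PGCC level was the lowest of the 3 states in both lines, at 33.9% of parental in Hey and 40.6% in SKOV3, changes of -1.55 and -1.30. With the lower pseudocount, the other scalings, mitochondrial genes left out or the GC and length trend removed, the Hey change of HNRNPU ran from -1.63 to -1.40 and its SKOV3 change from -1.36 to -1.06. In limma's test over both lines, the spread is the disagreement between the lines, drawn toward that of other genes of similar level. There HNRNPU had a change of -1.42 with an SE of 0.37 (limma, unadjusted p = 0.00575, Benjamini-Hochberg adjusted p = 1). No member passed an adjusted p of 0.05 in the limma test of PGCCs against parental cells, where 1 member and 409 of 14988 genes had an unadjusted p under 0.05 and 3 genes passed the adjustment. The paralogue HNRNPUL1 was at 152, 88.2 and 212 TPM in Hey and 179, 220.4 and 172 TPM in SKOV3, with PGCC changes of -0.78 and 0.30. HNRNPUL2 was at 40.1, 25.6 and 65.7 TPM in Hey and 76.0, 56.6 and 48.2 TPM in SKOV3, with changes of -0.63 and -0.42.

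HNRNPL, HNRNPA1 and HNRNPF differed most between the lines in PGCCs against parental cells, ranked on the TPM as deposited only. The HNRNPL transcript had 54.3% GC, beside a median of 42.2% for the members, and the SKOV3 changes of all genes followed GC content. With the GC and length trend removed, none of the 3 genes changed sign in SKOV3. HNRNPL (chr19:38836370-38852347), which binds CA-rich RNA, was at 265, 136 and 265 TPM in Hey parental, PGCC and daughter cells and at 281, 421 and 299 TPM in those of SKOV3. Its change in PGCCs was -0.95 in Hey and 0.58 in SKOV3. HNRNPF, which binds runs of G, was at 229, 127 and 218 TPM in Hey and 162, 219 and 146 TPM in SKOV3, changes of -0.85 and 0.43. With 1 library per condition the difference between the lines was not tested. The other F/H type genes were lower in Hey PGCCs by less, HNRNPH1 at 209.5, 187 and 207 TPM in Hey and 337, 443 and 314 TPM in SKOV3, and HNRNPH2 and HNRNPH3 with Hey changes of -0.25 and -0.38. HNRNPM and HNRNPR had changes of -0.54 and -0.56 in Hey and 0.02 and -0.31 in SKOV3. Across the 33 genes the changes in Hey and SKOV3 had a Pearson correlation of -0.06, and across all 14988 genes it was -0.005.

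**Figure D4:**
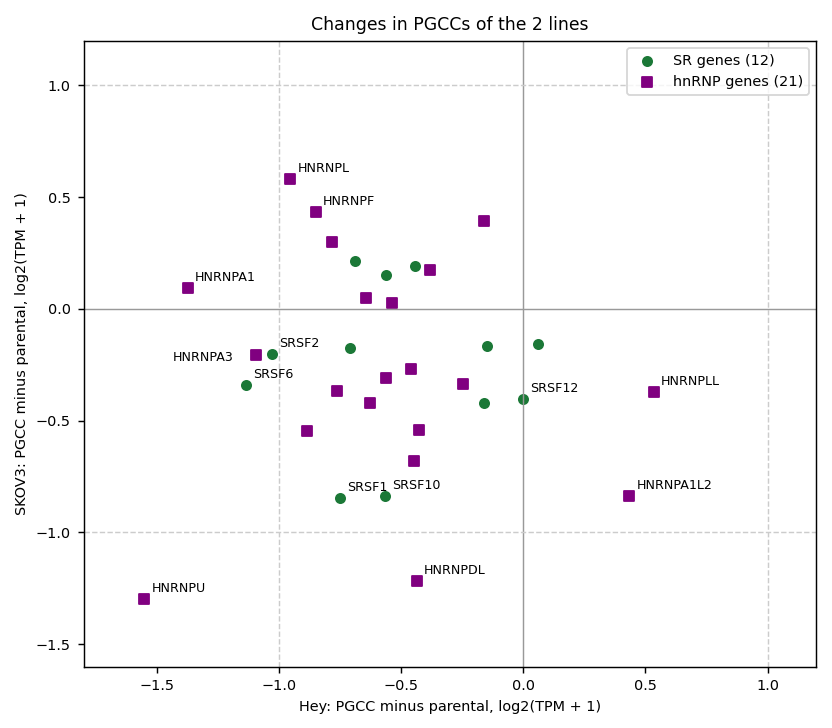
PGCC minus parental change of each gene in Hey (x axis) and in SKOV3 (y axis), both as differences of log2(TPM + 1), SR genes as circles and hnRNP genes as squares, 1 library per condition, with dashed lines at 2-fold. HNRNPU alone lies past both 2-fold lines, and HNRNPL, HNRNPF and HNRNPA1 lie at the upper left, lower in Hey and not in SKOV3.

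The bases upstream of 4 of these genes are shown because HNRNPU fell in PGCCs of both lines, SRSF6 in Hey, the change of HNRNPL differed in sign between the lines, and SRSF4 differed between the lines in every state. They are RefSeq promoter sequences of GRCh38.p14, read 5′ to 3′ on the gene's strand, up to 250 bases before the start and cut where the GENCODE gene begins. Capitals mark matches on either strand to the SP1 GC box GGGCGG, to CCAAT and to the ETS core CCGGAAG. The windows are chr1:244864561-244864793 (minus strand), chr20:43457646-43457892 (plus strand), chr19:38852348-38852597 (minus strand) and chr1:29181901-29182150 (minus strand).
HNRNPU: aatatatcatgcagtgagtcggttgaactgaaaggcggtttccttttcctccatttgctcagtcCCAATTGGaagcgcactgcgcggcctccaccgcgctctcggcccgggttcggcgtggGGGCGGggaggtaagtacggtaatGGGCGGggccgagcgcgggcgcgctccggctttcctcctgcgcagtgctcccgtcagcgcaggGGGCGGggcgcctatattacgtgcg
SRSF6: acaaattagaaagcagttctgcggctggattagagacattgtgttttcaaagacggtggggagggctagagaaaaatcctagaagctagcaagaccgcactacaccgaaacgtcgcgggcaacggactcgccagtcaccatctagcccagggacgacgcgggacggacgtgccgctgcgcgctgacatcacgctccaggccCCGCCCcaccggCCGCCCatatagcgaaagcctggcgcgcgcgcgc
HNRNPL: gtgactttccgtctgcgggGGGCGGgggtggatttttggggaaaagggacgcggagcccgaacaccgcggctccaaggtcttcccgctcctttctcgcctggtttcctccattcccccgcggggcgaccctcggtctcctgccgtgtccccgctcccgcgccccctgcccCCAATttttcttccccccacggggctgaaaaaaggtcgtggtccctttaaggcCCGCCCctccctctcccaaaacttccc
SRSF4: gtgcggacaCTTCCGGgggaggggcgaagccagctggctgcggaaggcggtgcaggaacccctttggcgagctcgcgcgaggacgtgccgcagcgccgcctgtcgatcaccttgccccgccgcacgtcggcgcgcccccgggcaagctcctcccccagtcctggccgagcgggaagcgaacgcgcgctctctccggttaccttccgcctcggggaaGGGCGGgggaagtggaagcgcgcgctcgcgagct
HNRNPU holds GC boxes and a pair of overlapping CCAAT matches on opposite strands, and HNRNPL holds both motifs too. SRSF6 holds GC boxes without a CCAAT match, and SRSF4 holds a GC box and an ETS match.

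Promoters were found for 31 of the 33 genes (those of HNRNPA1 and SRSF2 were not), and 250 upstream bases were searched. The GC box was in 20 of 31, or 64.5%, beside 67.1% of 10493 promoters of expressed genes and 42.3% of all 27305. CCAAT was in 15 of 31 (48.4%), beside 35.3% and 33.0%. The TATA letters TATAAA were in 5 of 31 (16.1%), those of HNRNPAB, HNRNPC, HNRNPD, SRSF11 and SRSF3, beside 5.49% and 11.1%. They lay 29 and 30 bases before the start in HNRNPAB and SRSF3, but 126, 184 and 206 bases before it in HNRNPD, HNRNPC and SRSF11. The searched windows follow RefSeq starts, and some, those of HNRNPD and SRSF11 among them, lie inside the gene as GENCODE draws it. The ETS core was in 5 (16.1%), beside 16.1% and 8.82%. The E2F letters TTTCCCGC were in 2 (6.45%), beside 2.23% and 1.42%, and the NRF1 letters GCGCATGC in 1 (3.23%), beside 4.82% and 2.81%. The YY1 letters AAGATGGCG were in 0, beside 1.14% and 0.641%, and the CRE letters TGACGTCA in 0, beside 2.79% and 1.77%. Both strands were searched, and a match is a run of letters and not a site shown to be bound.

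Daughter cells were compared with parental cells to see which of these levels differed once giant cells had given rise to small ones. In Hey 0 of the 33 genes rose at least 2-fold (6.31% of all genes) and 0 fell (3.73% of all genes), with a median of -0.02 beside 0.05. In SKOV3 1 rose (15.1% of all genes), SRSF12, and 1 fell (6.34% of all genes), HNRNPA1L2. There 26 of 33 were below parental (39.9% of all genes), with a median of -0.35 beside 0.15. SRSF12 (chr6:89095959-89118071) stood at 276% of its parental level in SKOV3 daughter cells, although both levels were below 10 TPM, and its change was 0.86 after quantile normalization. HNRNPA1L2 (chr13:52642431-52643773) had daughter changes of -1.05 in SKOV3 and 0.67 in Hey, and its SKOV3 change was -0.98 with mitochondrial genes left out.

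Some genes were below parental in the daughter cells of both lines. HNRNPLL (chr2:38561969-38603586), known for the splicing of CD45 in lymphocytes, was at 11.2, 16.7 and 5.35 TPM in Hey parental, PGCC and daughter cells and at 48.8, 37.5 and 28.0 TPM in those of SKOV3, daughter changes of -0.94 and -0.78. SRSF11 (p54) was at 157, 140.1 and 99.0 TPM in Hey and 106, 79.2 and 83.0 TPM in SKOV3, and it had its highest level in Hey parental cells. Its daughter changes were -0.66 and -0.35, and those of SRSF10 were -0.28 and -0.81. SRSF8 and HNRNPH2 were the 2 genes above parental in daughter cells of both lines, SRSF8 by 0.13 and 0.60 and HNRNPH2 by 0.09 and 0.21, although with median-ratio scaling HNRNPH2 was at -0.04 and -0.007. HNRNPH2, an X-linked gene close to HNRNPH1 in sequence, was at 100.4, 84.5 and 107 TPM in Hey and 90.7, 71.7 and 105 TPM in SKOV3. None of these genes reached 2-fold in daughter against parental cells on the TPM as deposited. HNRNPLL did in Hey with the lower pseudocount (-1.05) and with median-ratio scaling (-1.07), and with that scaling SRSF10 (-1.02), SRSF2 (-1.10) and HNRNPDL (-1.07) did in SKOV3. The limma test of this contrast gave 0 members at an unadjusted p under 0.05, where 508 of all genes had one.

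PGCCs were also set against daughter cells, which share the drug history. In Hey 6 of 33 genes were at least 2-fold lower in PGCCs (9.95% of all genes), HNRNPUL2, HNRNPA1, HNRNPUL1, HNRNPA2B1, HNRNPD and HNRNPM, and 1 was higher (8.13% of all genes), HNRNPLL. The changes ran from -1.33 for HNRNPUL2 to -1.02 for HNRNPM, a protein known from epithelial and mesenchymal splicing programs and at 201, 138 and 281 TPM in Hey and 369, 376 and 266 TPM in SKOV3. HNRNPLL was 3.12-fold higher in Hey PGCCs, at 16.7 against 5.35 TPM. With mitochondrial genes left out, HNRNPA2B1, HNRNPD and HNRNPM were at -0.96, -0.96 and -0.94, and all 3 were also short of 2-fold with median-ratio scaling and with quantile normalization. In SKOV3 2 genes were at least 2-fold lower in PGCCs (14.6% of all genes), SRSF12 and HNRNPU, at -1.64 and -1.44, and 0 were higher (9.25% of all genes). With the GC and length trend removed HNRNPU was at -0.98, short of the threshold, and SRSF7 was higher past it, at 1.04. The median was -0.59 in Hey, beside -0.03 over all genes, and 0.20 in SKOV3, beside -0.12. The PGCC libraries are those already compared with parental cells. In limma over both lines HNRNPU had a change of -1.18 with an SE of 0.37 (unadjusted p = 0.0146, Benjamini-Hochberg adjusted p = 0.908). There 1 member and 758 of 14988 genes had an unadjusted limma p under 0.05, and 0 members passed an adjusted p of 0.05.

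**Figure D5:**
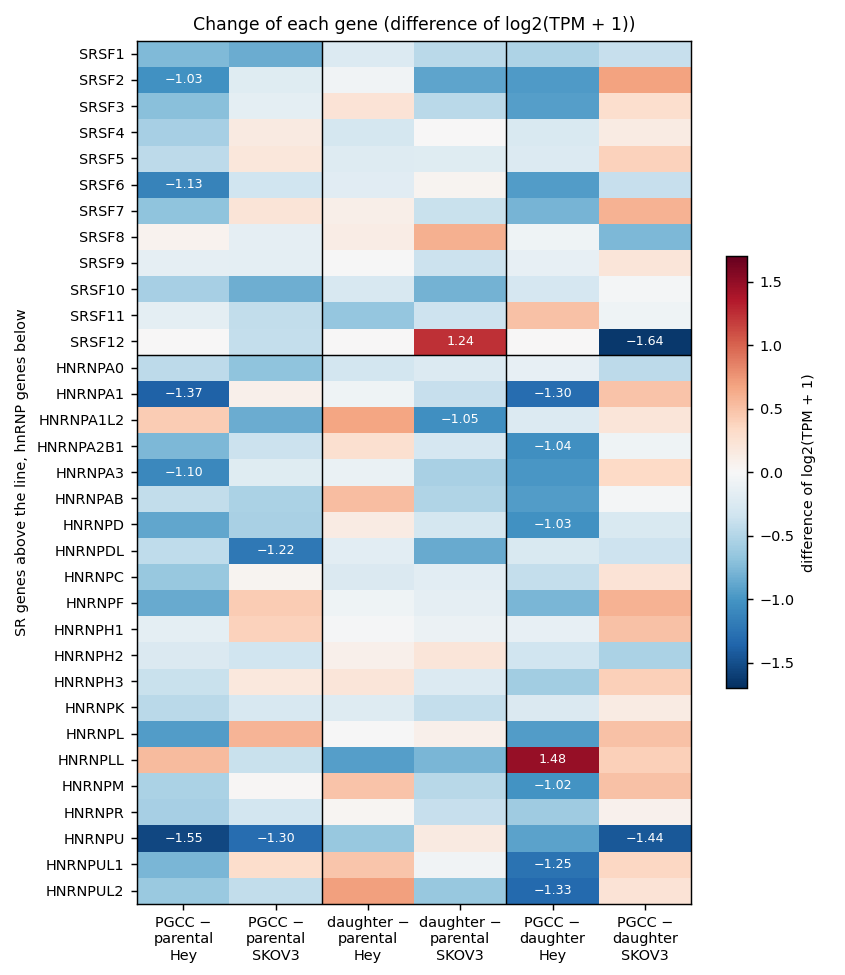
Changes of the 33 genes (rows) in the 6 comparisons between states (columns, Hey and SKOV3 side by side), as differences of log2(TPM + 1), red for higher and blue for lower in the first-named state, with the value printed where it reaches 2-fold. Blue fills most of the Hey PGCC columns, and HNRNPU is marked at -1.55 and -1.30 in the PGCC minus parental columns.

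Hey was set against SKOV3 in each state. In parental cells 3 of 33 genes were at least 2-fold lower in Hey (24.2% of all genes), HNRNPLL, SRSF4 and SRSF12. The parental call of SRSF4 was lost with median-ratio scaling (-0.81), quantile normalization (-0.91) and the GC and length trend removed (-0.83). In PGCCs 16 were (29.6% of all genes), and in daughter cells 3 were, again HNRNPLL, SRSF4 and SRSF12 (29.5% of all genes). The medians of the members were -0.30, -0.91 and 0.04, and those of all genes were -0.29, -0.35 and -0.38. Median-ratio scaling left 5 lower members in PGCCs (22.9% of all genes) and put 2 higher (18.0% of all genes), SRSF8 and SRSF11. It gave a parental median of 0.02. The 16 in PGCCs included HNRNPL, at 136 against 421 TPM, HNRNPM, at 138 against 376, and HNRNPH3, at 196 against 449.8. With the GC and length trend removed 11 members stayed past 2-fold lower (17.0% of all 13348 genes). HNRNPL (-0.95) and HNRNPM (-0.81) were no longer among them. SRSF8 was then higher (1.03), as were 17.3% of these genes.

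SRSF4 and HNRNPLL were lower in Hey in all 3 states. SRSF4 (chr1:29147743-29181900), a large SR protein, was at 31.9, 21.3 and 25.8 TPM in Hey parental, PGCC and daughter cells and at 70.9, 78.8 and 71.5 TPM in those of SKOV3. Its Hey minus SKOV3 differences were -1.13 in the parental state, -1.84 in PGCCs and -1.44 in daughter cells. Those of HNRNPLL were -2.03, -1.12 and -2.19, and the PGCC value was -0.83 with median-ratio scaling and -0.79 after quantile normalization. In limma, with the 3 states as the repeats of the line difference, 3 members passed a Benjamini-Hochberg adjusted p of 0.05 (20.6% of all genes). HNRNPLL was lower by 1.78 with an SE of 0.35 (limma, adjusted p = 0.0135) and SRSF4 by 1.47 with an SE of 0.31 (limma, adjusted p = 0.0173). The third, SRSF12, is listed at 0 in Hey and had to differ by the way it reached the mean TPM. HNRNPH1, SRSF9 and HNRNPR had unadjusted p values of 0.0236, 0.0257 and 0.032 (limma) and adjusted p values of 0.0832, 0.0881 and 0.102. When every gene with a TPM above 0 was tested, 0 members passed.

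The proteins that act with these factors were counted by lists, which were drawn up with earlier results of these data known. Of 9 expressed SR protein kinases and import factors, 2 rose in Hey PGCCs compared with parental cells (7.67% of all genes) and 2 fell in SKOV3 PGCCs (4.96% of all genes). CLK1, a kinase that phosphorylates SR proteins and is named after its values were seen, was at 11.7, 45.1 and 14.7 TPM in Hey parental, PGCC and daughter cells and at 44.8, 15.7 and 14.7 TPM in those of SKOV3. It was high in Hey PGCCs and in SKOV3 parental cells, so its PGCC change was 1.86 in Hey and -1.46 in SKOV3. CLK4 was the other kinase that rose in Hey (1.12), and PRPF4B the other that fell in SKOV3 (-1.05), also named after their values were seen. Of 20 SR-related proteins 3 fell in Hey PGCCs and 1 in SKOV3 PGCCs, and of 21 hnRNP-like proteins 4 and 1 did (5.22% and 4.96% of all genes). These were TRA2B, U2AF1, ARGLU1, PCBP2, RBMX, EWSR1 and NONO in Hey and SREK1 and PTBP2 in SKOV3, named after their values were seen. Within the lists of kinases, SR-related proteins, hnRNP-like proteins, core spliceosome proteins, tissue-restricted regulators and NMD factors, 0 genes passed 2-fold with the same sign in Hey and SKOV3 in any of the 3 state comparisons. Of all genes 1.67% did in PGCCs against parental cells, 1.57% in daughter against parental cells and 2.29% in PGCCs against daughter cells. Changes of the genes in these lists are those of the TPM as deposited. The processing alternatives, removal of the GC and length trend among them, were not run on these genes.

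U2AF1, which reads the 3′ splice site, was at 78.2 TPM in Hey parental cells and 2.86 in Hey PGCCs, but its near-identical copy U2AF1L5 was at 107 and 113 TPM. The sum of both was 185 and 116 TPM, and reads of U2AF1 could be split between the copies. Of the 48 core spliceosome proteins, 1 fell in Hey PGCCs against parental cells (5.22% of all genes), SNRPA. In SKOV3 PGCCs 2 rose (9.94% of all genes), SF3A2 and DHX38, and 2 fell (4.96% of all genes), SNRPE and LSM5. The medians were -0.30 in Hey and -0.01 in SKOV3. Against daughter cells, 11 of the 48 were lower in Hey PGCCs (9.95% of all genes) and 3 were higher in SKOV3 PGCCs, namely SF3A2, SF3B5 and LSM7 (9.25% of all genes). The genes of this list are named after their values were seen. Of 12 tissue-restricted regulators 1 fell in Hey PGCCs against parental cells (5.22% of all genes), MBNL3, named after its value was seen. In SKOV3 PGCCs 0 of them rose (9.94% of all genes) and 0 fell (4.96% of all genes). Of 10 NMD factors 0 changed 2-fold in PGCCs against parental cells of either line, with medians of -0.001 and -0.07. Of all genes 7.67% rose and 5.22% fell in Hey, and 9.94% rose and 4.96% fell in SKOV3. The 6 proliferation genes checked, MKI67 and CDK1 among them, had a median of -1.96 for PGCCs against parental cells of Hey and of -0.84 for those of SKOV3, and their part in the changes of the splicing factors was not tested.

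Annotated transcript kinds and GC content were also compared with those of the expressed genes. An NMD transcript is annotated for 26 of them (78.8%), beside 43.1% of 13348 expressed genes with an annotation and 47.3% of the protein-coding ones. A transcript with a retained intron is annotated for 25 (75.8%), beside 55.6%, and both kinds for 23 (69.7%), beside 34.2%. The members have a median of 12 annotated transcripts each, beside 8. Their transcripts had a median GC content of 42.2%, beside 47.6%, from 35.1% for HNRNPR to 54.9% for HNRNPUL1. The 21 members under 45% GC had a median PGCC change of -0.57 in Hey and -0.34 in SKOV3, and the 12 at or above it had -0.55 and -0.16.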

How the data were processed

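The 6 RNA libraries are 1 each of parental, PGCC and daughter cells of Hey and SKOV3. Per the submitters' processing notes, reads were trimmed with fastp and quantified on the human transcriptome (hg38) with Salmon 0.14.1, and the authors deposited TPM values for each gene symbol in each library. The annotation release and the step from transcripts to symbols are not given in the sources used here. TPM keeps no read counts, so the depth per gene is unknown and no counting error is given. All 6 columns were matched to samples by their names.

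Members were found by symbol, and the members and the lists of related genes were chosen with earlier results of these data known. Changes are differences of log2(TPM + 1), called at a size of at least 1, and the background is every gene with a mean TPM of at least 1. A fold change on this scale understates the change of low genes. These genes were also tested on that scale with limma 3.58.1 (R 4.3.3), in a model with a term for state and one for line, a trended eBayes step and Benjamini-Hochberg adjustment, which leaves 2 residual degrees of freedom. The eBayes step borrows spread from other genes, which brings the total to 7.33 degrees of freedom. The 2 lines are not replicates of a culture, so its p-values rest on the disagreement between lines or states, partly pooled over genes. No gene list was tested. The steps were run on simulated data with the same changes in both lines and less noise than here. That run checks the code and not its power on these data. Other steps used Python 3.11.15 with pandas 2.3.3, numpy 2.4.6 and statsmodels 0.14.6.

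Members named with all their values are those called in a comparison between states, the 3 SR and 3 hnRNP genes with the highest mean TPM, the 3 with the highest and lowest shared change against parental cells, the 3 that differ most between the lines in PGCCs, those within 3 times the mean TPM threshold and those with an unadjusted limma p under 0.05 (at most the 5 smallest for each comparison). HNRNPK and SRSF7 were added to them after their values were seen. Related genes named by values are marked as such. Alternatives were a pseudocount of 0.1, median-ratio scaling, quantile normalization, leaving out mitochondrial genes, removal of a lowess trend (fraction 0.3) in GC content and transcript length, thresholds of 1.5-fold and 3-fold, a mean TPM of at least 5 or no filter, and for limma also no trend, all genes with a TPM above 0, and no line or state term. Added after seeing the data were a protein-coding background and the members without HNRNPA1, HNRNPA1L2 and SRSF12. GENCODE release 44 (GRCh38), matched by symbol, gave the positions, GC content and kinds of transcripts. Promoters are those of RefSeq on GRCh38.p14, used without the 50 bases after the start.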

Additional observations from a re-analysis of the deposited data

Results flagged for a closer look

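HNRNPA1L2, the single-exon copy of HNRNPA1, stood out because its changes in daughter cells went in opposite directions in the 2 lines. Compared with parental cells, HNRNPA1L2 was 0.67 higher in Hey daughter cells and fell by 1.05 in SKOV3 daughter cells on the log2(TPM + 1) scale. The levels were 5.52 TPM in parental cells and 9.36 TPM in daughter cells of Hey, and 9.87 and 4.26 TPM in SKOV3. With mitochondrial genes left out the SKOV3 change was -0.98. With 1 library per condition the difference between the lines was not tested, and reads could be split between HNRNPA1L2, HNRNPA1 and its pseudogenes.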

How the results depend on the processing

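With 1 library per condition, TPM without counts and no error within a condition, the 2-fold calls are descriptions. The limma fit compares states within a line through its line term, and it was also run without that term. No change of a named member that was called at 2-fold changed sign under the alternatives applied to single genes. Of 1215 values 84 changed sign, for changes of at most 0.51. The limma counts of members at an adjusted p under 0.05 were 0 for the state contrasts in every alternative, and at an unadjusted p they ran from 0 to 3.

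Median changes moved as follows. In PGCCs against parental cells, the Hey median (-0.56) was -0.43 with quantile normalization and -0.42 without mitochondrial genes, and the SKOV3 median (-0.27) reversed to 0.0558 with the GC and length trend removed. In daughter against parental cells, median-ratio scaling gave -0.15 in Hey (-0.02) and -0.57 in SKOV3 (-0.35), and quantile normalization gave -0.19 in SKOV3. In PGCCs against daughter cells, the Hey median (-0.59) was -0.43 with quantile normalization, and the SKOV3 median (0.20) was 0.32 with median-ratio scaling, 0.0862 with quantile normalization, 0.0823 without mitochondrial genes and 0.43 with the trend removed. For Hey minus SKOV3, the parental median (-0.30) reversed to 0.0166 with median-ratio scaling, a scaling that moved the median of all genes from -0.29 to -0.01, and was -0.0251 with the trend removed. The PGCC median (-0.91) was -0.60 with median-ratio scaling, -0.76 with quantile normalization and -0.61 with the trend removed. The daughter median (0.04) was 0.44, -0.0797 without mitochondrial genes and 0.40 with the trend removed.

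Counts of members past 2-fold, both directions together, changed by more than 1.5 times in these cases. Brackets give the percent of all genes called in the same setting, lower and then higher. PGCC minus parental in Hey gave 5 (5.22%, 7.67%), and 3 with quantile normalization (5.74%, 6.24%). It gave 2 without mitochondrial genes (3.95%, 9.70%), 15 at 1.5-fold (14.4%, 17.1%) and 0 at 3-fold (1.71%, 2.95%). In SKOV3 it gave 2 (4.96%, 9.94%), and 6 at 1.5-fold (16.3%, 22.9%) and 0 at 3-fold (1.01%, 2.01%). Daughter minus parental in Hey gave 0 (3.73%, 6.31%), and 1 with the lower pseudocount (6.84%, 10.9%). It gave 1 with median-ratio scaling (5.04%, 5.46%) and 5 at 1.5-fold (10.7%, 17.2%). In SKOV3 it gave 2, and 5 with median-ratio scaling, 1 with quantile normalization, 1 without mitochondrial genes, 1 at a mean TPM of at least 5, 8 at 1.5-fold, 0 at 3-fold and 0 without HNRNPA1, HNRNPA1L2 and SRSF12. PGCC minus daughter in Hey gave 7 (9.95%, 8.13%), and 4 with median-ratio scaling (9.25%, 8.95%) and 4 with quantile normalization (8.79%, 8.77%). It gave 4 without mitochondrial genes (8.99%, 9.32%), 18 at 1.5-fold (22.0%, 17.2%) and 0 at 3-fold (3.44%, 3.47%). In SKOV3 it gave 2 (14.6%, 9.25%), and 6 at 1.5-fold (28.0%, 18.7%) and 1 at 3-fold (6.22%, 3.71%). It gave 1 at a mean TPM of at least 5 (12.1%, 9.07%) and 1 without HNRNPA1, HNRNPA1L2 and SRSF12 (14.6%, 9.25%). Hey minus SKOV3 gave 3 in parental cells, and 5 without mitochondrial genes and 15 at 1.5-fold. It gave 16 in PGCCs (29.6%, 13.4%), and 7 with median-ratio scaling (22.9%, 18.0%). There it gave 10 with quantile normalization (22.1%, 19.4%) and 3 at 3-fold (16.3%, 7.66%). It gave 3 in daughter cells (29.5%, 12.3%), and 7 at 1.5-fold (43.2%, 19.5%). Summed TPM of SKOV3 daughter cells was 66.6% of parental for SR genes and 69.4% for hnRNP genes with median-ratio scaling, against 77.3% and 80.6%. The limma count of members for Hey minus SKOV3 was 3 (20.6% of all genes), and 0 with all genes above 0 tested and 5 without the state term. For these limma alternatives the share of all genes was not counted. The causes of these moves were not tested.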

Other observations

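The table also lists 75 pseudogene rows of HNRNPA1, which the choice of members left out. Their summed level was 5.32, 5.38 and 7.01 TPM in Hey parental, PGCC and daughter cells and 20.7, 26.6 and 33.5 TPM in SKOV3. This was 0.244% to 0.639% of the HNRNPA1 level in Hey and 1.09% to 2.31% in SKOV3. Most of it in SKOV3 was 1 pseudogene, HNRNPA1P33, at 13.5, 19.3 and 21.6 TPM, which was listed at 0 in parental and daughter cells of Hey and at 0.118 TPM in Hey PGCCs. HNRNPA1P33 and HNRNPA3P6 were named after their values were seen. HNRNPA3P6 was at 0.483, 2.16 and 0.362 TPM in Hey and 3.08, 1.10 and 0.641 TPM in SKOV3. How far these rows hold reads of the parent genes was not tested.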
